A study of Caenorhabditis elegans with 7 samples.

Results

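The 6 genes described here are linked to peroxisomal fatty acid oxidation and were followed in adult Caenorhabditis elegans through 12 h of heat. They are acox-1.6, acox-3 and acox-1.4, which encode acyl-CoA oxidases, decr-1.1, named for a 2,4-dienoyl-CoA reductase, lonp-2, named for the peroxisomal Lon protease, and pxmp-4, named for a peroxisomal membrane protein. They were taken by name, as the 6 genes on 6 probes among 7534 named genes and 19200 probes. All 6 were picked with their ratios on these arrays in view, so what is said of their change over time is a description and carries no test.

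Sterile adults of strain CF512, grown at 25 °C, were moved to 30 °C and sampled at 0, 2, 4, 6, 8, 10 and 12 h. The labels name the strain and say that it is sterile at 25 °C, and they give no allele, age or number of animals. Total RNA of each time point was hybridised on 1 two-colour array against a common reference RNA called HS1, so each value is a log2 ratio to that reference and not a level. Every array carries the same strain and the same growth temperature, and the 0 h array is the only unheated one.

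Peroxisomes shorten fatty acids that mitochondria handle poorly, chiefly very long and branched ones, by beta-oxidation. Acyl-CoA oxidases carry out the first step and pass electrons to oxygen, which gives hydrogen peroxide, and in C. elegans such oxidases also trim the side chains of the ascaroside pheromones. Dienoyl-CoA reductases prepare unsaturated chains for the same cycle, and in mammals there are a mitochondrial and a peroxisomal form. Lon of the peroxisome degrades and helps to process proteins of the matrix in other organisms, and PXMP4 is an integral membrane protein of mammalian peroxisomes. The arrays measure RNA of whole animals and do not show where a product acts. In such samples, fewer cells of a type and less RNA per cell cannot be told apart.

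Values were present for 16143 to 16972 probes per array and for 13552 probes on all 7. The SD over probes lay between 0.497 and 0.585 on the heated arrays, against 0.634 on the 0 h array. None of the 47 tissue markers chosen for intestine, hypodermis, muscle, neurons, germline and sperm was on a named probe, so the labelled material was not checked against markers here. There is 1 array per time point and no replicate, so the spread among the heated arrays, which includes change over time, is the only error available.

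The sources do not state which channel is on top of the ratio. The inducible HSP70 genes F44E5.4 and F44E5.5, near-identical neighbours, stood at 0.91 and 0.83 at 2 h, against -4.98 for both at 0 h, where the deposited values stop. Worm RNA over reference is the likely direction on that basis, and it is used below. With the sign turned, every higher and lower below would change places. The 12 h and 0 h arrays had the lowest correlation over probes of any pair, -0.212.

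All 6 genes had their highest ratio at 0 h. The heated ratios of acox-1.6, acox-3, acox-1.4 and lonp-2 lay well below that value from 2 h on. Those of decr-1.1 and pxmp-4 had a smaller first step, with differences of -0.49 and -0.40 between 2 h and 0 h. Each of the 5 genes measured on all arrays had all 6 heated values below its 0 h value, as did 21.4% of all features, and acox-3 had all 5 of its heated values below.

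acox-1.6 encodes an acyl-CoA oxidase of the group that includes the pheromone-trimming enzymes of the worm. Its centred log2 ratio was 1.89 at 0 h, -0.90 at 2 h, -0.54 at 4 h, -0.96 at 6 h, -0.88 at 8 h, -0.70 at 10 h and -1.23 at 12 h. The first value stood apart and the 6 others lay within 0.69 log2 units of each other. At 0 h the gene ranked 96th from the top of 16690 features on the array. The mean of the heated arrays was -0.87 ± 0.24 (SD, n = 6), against 1.89 on the 0 h array, a difference of -2.76 (SE 0.27), or 6.75-fold lower if the logs are of base 2. Of this difference, 101% was already there at 2 h.

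acox-3, another acyl-CoA oxidase gene, had ratios of 1.99 at 0 h, -1.54 at 2 h, -0.50 at 4 h, -1.44 at 6 h, -1.64 at 8 h and -1.70 at 10 h, and no value at 12 h. Its 2 h value was thus among the low ones and the 4 h value stood above the other heated values. The difference between 2 h and 0 h was -3.53, the 5th lowest of 15461 features with both values. The mean of the 5 measured heated arrays was -1.36 ± 0.49 (SD, n = 5), against 1.99 on the 0 h array, 10.3-fold lower if base 2. Since 12 h was blank, acox-3 entered only the fit that allows missing arrays, where the difference was -3.36 (SE 0.45).

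acox-1.4 is the last of a run of 4 acyl-CoA oxidase genes in the WBcel235 gene order, after acox-1.1, acox-1.2 and acox-1.3. None of these 3 had a named probe, nor had acox-1.5. Its ratios were 1.36 at 0 h, -0.37 at 2 h, -1.04 at 4 h, -1.69 at 6 h, -1.39 at 8 h, -0.44 at 10 h and -1.203 at 12 h. The ratio was lowest at 6 h and stood higher again at 10 h, so its heated values were more scattered than those of acox-1.6. The heated mean was -1.02 ± 0.53 (SD, n = 6), against 1.36 on the 0 h array, a difference of -2.38 (SE 0.47). At 2 h, 72.7% of it was present. Probe sequences were not used here, so signal from the neighbouring paralogues cannot be told apart from that of acox-1.4.

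decr-1.1 was the enzyme gene with the smallest first step. Its ratios were 1.29 at 0 h, 0.79 at 2 h, -0.08 at 4 h, 0.20 at 6 h, 0.50 at 8 h, -0.60 at 10 h and -0.59 at 12 h. It stood higher at 8 h than at 4 h, and its lowest values were the last pair. The heated mean was 0.04 ± 0.57 (SD, n = 6), against 1.29 on the 0 h array, a difference of -1.25 (SE 0.50) of which 39.5% was present at 2 h. At 2 h the gene was still above 96.6% of the features on its array, and at 12 h it was above 13.9%.

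lonp-2 had ratios of 1.32 at 0 h, -0.66 at 2 h, -0.26 at 4 h, -1.25 at 6 h, -0.98 at 8 h, -1.11 at 10 h and -1.59 at 12 h. It thus had a step as the oxidase genes did and then lower values late in the course. The heated mean was -0.97 ± 0.47 (SD, n = 6), against 1.32 on the 0 h array, a difference of -2.30 (SE 0.42), or 4.91-fold lower if base 2. The 2 h array already held 86.2% of it.

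pxmp-4 was near the middle of the 0 h array, above 62.6% of its features, where each of the other genes was above 97.4% or more. Its ratios were 0.15 at 0 h, -0.24 at 2 h, 0.03 at 4 h, -0.34 at 6 h, -0.48 at 8 h, -0.77 at 10 h and -0.94 at 12 h. After 4 h each value was below the one before, and the 4 h value lay only 0.12 below that at 0 h. The heated mean was -0.46 ± 0.36 (SD, n = 6), against 0.15 on the 0 h array, a difference of -0.61 (SE 0.35). The 2 h array held 64.8% of it, and the 4 h value was then nearer to that at 0 h.

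**Figure D1:**
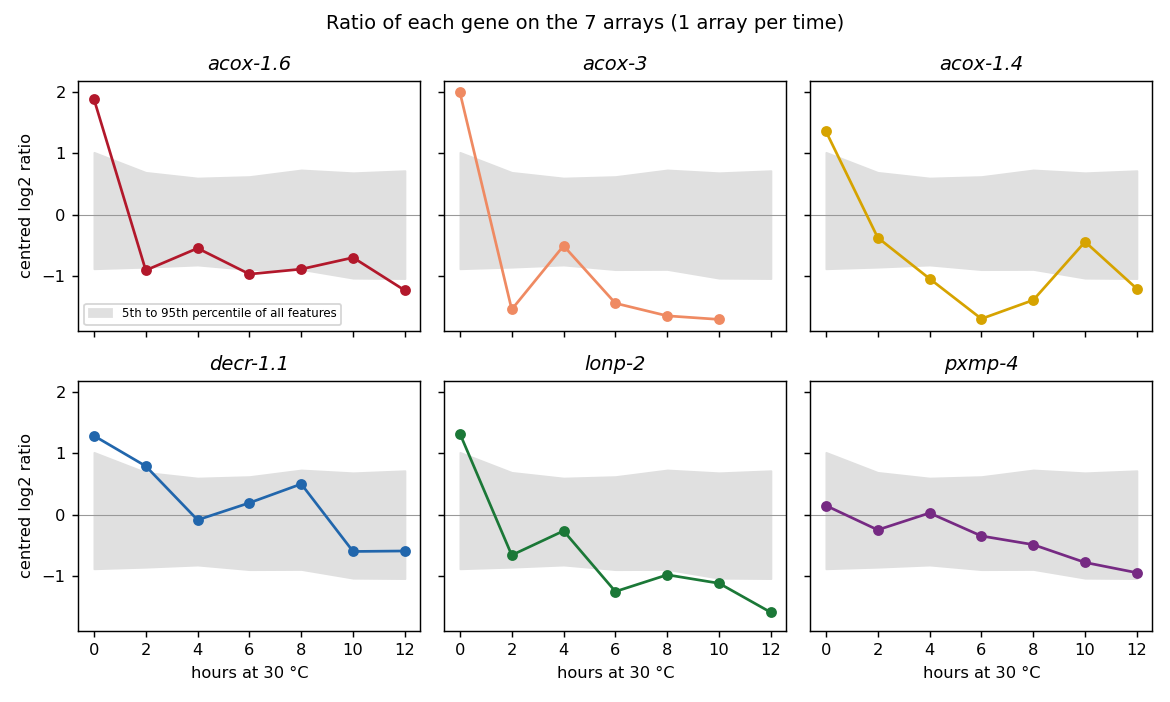
Centred log2 ratio of each gene (vertical axis) against hours at 30 °C (horizontal axis), 1 point per array, with the 5th to 95th percentile of all features on each array in grey. acox-1.6, acox-3, acox-1.4 and lonp-2 are below 0 from 2 h on, decr-1.1 reaches -0.60 only at 10 h, and pxmp-4 is at 0.15 at 0 h and at -0.94 at 12 h; acox-3 has no point at 12 h.

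Step and later change were then set apart. The early step is the mean of the 2, 4 and 6 h arrays minus the 0 h array, and the later change is the mean of the 8, 10 and 12 h arrays minus the mean of the 2, 4 and 6 h arrays. For acox-1.6 the early step was -2.69 and the later change -0.13. For acox-1.4 they were -2.39 and 0.02. These oxidase genes had their whole difference in the early step. lonp-2 had both, an early step of -2.04 and a later change of -0.50. decr-1.1 had a smaller early step, -0.99, with a later change of -0.53. In pxmp-4 the order was turned, with an early step of -0.34 and a later change of -0.55. For acox-3 the early step was -3.15, and the mean of 8 and 10 h lay -0.51 from that of 2 to 6 h, a value that its high 4 h ratio enters. Over all features the median was 0.03 for the early step (5th to 95th percentile -1.12 to 0.82) and 0.01 for the later change (-0.65 to 0.57). All 6 later changes were therefore inside the central range of features, while the early steps of the 3 oxidase genes and lonp-2 were below its lower end. Among the 757 features at least 1 log2 unit lower at 2 h than at 0 h and measured throughout, the median later change was -0.05.

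**Figure D2:**
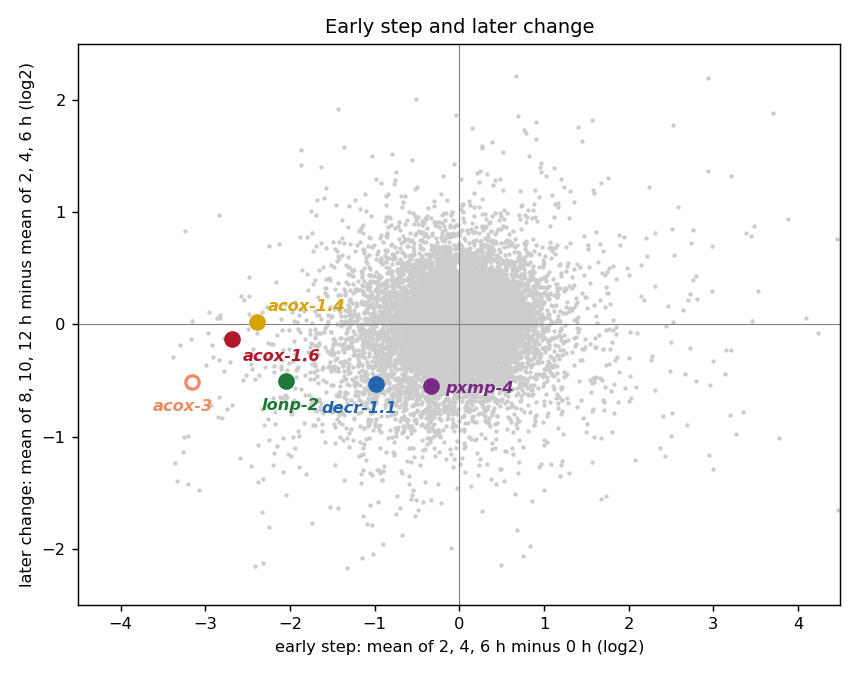
Early step (mean of 2, 4 and 6 h minus 0 h, horizontal axis) against later change (mean of 8, 10 and 12 h minus mean of 2, 4 and 6 h, vertical axis), both in log2 units, for all 13369 features in grey (18 lie outside the axes) and the 6 genes in colour; the open point for acox-3 uses 8 and 10 h alone. The oxidase genes lie far left, acox-1.6 and acox-1.4 near 0 on the vertical axis, with lonp-2, decr-1.1 and pxmp-4 at later changes of -0.50 to -0.55.

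Linear models were then fitted over all features, and as the genes were chosen on these values the counts are only set beside the background. Comparing heated arrays with the 0 h array, 3 of the 5 genes tested passed the threshold with a lower ratio (acox-1.6, acox-1.4 and lonp-2), where 0.957% of 13369 features did and 0.681% passed with a higher one. When either the 6 h or the 8 h array was left out, acox-1.6 alone passed. At an adjusted threshold of 0.05, acox-1.6 passed in 15 of 15 alternative settings, lonp-2 in 8 and acox-1.4 in 7. In the fit with up to 2 missing arrays allowed, acox-3 and acox-1.6 passed and acox-1.4 and lonp-2 did not. For the linear trend over 0 to 12 h, 3 of 5 passed with a lower ratio, where 3.63% of features did and 1.72% passed with a higher one, but they were decr-1.1, lonp-2 and pxmp-4. Their fitted changes over 12 h were -1.68 (SE 0.39), -2.22 (SE 0.54) and -1.04 (SE 0.24). The fitted changes of acox-1.6 and acox-1.4, -1.99 (SE 0.75) and -1.75 (SE 0.76), had larger errors and did not pass. With time as log2 of hours plus 1, 4 of 5 passed, namely acox-1.6 (-2.61), acox-1.4 (-2.41), decr-1.1 (-1.74) and lonp-2 (-2.58), while pxmp-4 did not. On the linear scale, leaving out any 1 array left 0 or 1 gene past the threshold. Without the 0 h array it was 0, and the fitted changes over 12 h became -1.39, -1.19 and -1.04.

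Within the heating period, over the 2 to 12 h arrays, 0 of 5 genes passed with limma, where 0.779% of 13478 features passed with a lower ratio and 0.378% with a higher one. At an unadjusted p under 0.05, decr-1.1, lonp-2 and pxmp-4 were among 1971 features, 14.6% of those tested. Their fitted changes over these 10 h were -1.16 (SE 0.41), -0.99 (SE 0.34) and -0.86 (SE 0.26). For acox-1.6 and acox-1.4 they were -0.29 (SE 0.30) and -0.29 (SE 0.52), and that of acox-1.4 was 0.46 without the 2 h array. The residual standard deviation about the line was 0.17 for pxmp-4, 0.23 for acox-1.6, 0.31 for lonp-2, 0.41 for decr-1.1 and 0.57 for acox-1.4, against a median of 0.26 over features. pxmp-4 thus followed a line closely and acox-1.4 did not.

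The genes were next compared interval by interval. Between 0 and 2 h all 6 were lower at the later time, where 47.5% of features were, and 4 of the 6 (acox-1.6, acox-3, acox-1.4 and lonp-2) were lower by 1 log2 unit or more, where 6.88% of features were. Between 2 and 4 h acox-1.4 (-0.67) and decr-1.1 (-0.88) were lower at 4 h, as were 50.9% of features. The 4 others, acox-1.6 (0.36), acox-3 (1.04), lonp-2 (0.40) and pxmp-4 (0.28), were higher at 4 h. Between 4 and 6 h the same 4 genes were lower again, with differences of -0.42, -0.94, -0.99 and -0.37, and acox-1.4 differed by -0.65, leaving decr-1.1 as the 1 gene that was higher (0.28), where 49.5% of features were lower. The 4 h values rest on 1 array. Before centring its median was 0.038, against 0.024 at 2 h and 0.043 at 6 h, and how the deposited values were normalized is not stated. Between 6 and 8 h, 4 of the 6 genes were higher at 8 h and 2 were lower, where 50.2% of features were lower. From 8 to 10 h, 4 were lower and 2 higher, where 51.3% of features were lower. In that interval acox-1.4 differed by 0.95 and decr-1.1 differed by -1.098, so these 2 genes parted in opposite ways. From 10 to 12 h, 4 of the 5 genes measured were lower, where 48.2% of features were, the largest difference being that of acox-1.4 (-0.77), and decr-1.1 differed by 0.01.

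How closely 2 genes ran together was measured as the root mean square difference between their profiles, each centred on its own mean over the arrays. Over all 7 arrays the closest pair was acox-1.6 and lonp-2, at 0.30 log2 units, and acox-1.6 and acox-1.4 were at 0.44. decr-1.1 and pxmp-4, which lack a large step, were also at 0.44. pxmp-4 stood 0.79 from acox-1.6, 0.825 from acox-1.4 and, over the 6 arrays that acox-3 has, 1.09 from acox-3. Over all 14121955 pairs of named genes measured on every array the median was 0.45, a figure set by the many genes that hardly vary. On the heated arrays alone the order was another. lonp-2 and pxmp-4 then formed the closest pair, at 0.21, pxmp-4 was 0.25 from acox-1.6, and acox-3 was 0.26 from each of lonp-2 and pxmp-4 over its 5 arrays. acox-1.4 and decr-1.1 were 0.72 apart. For all named pairs the median on these arrays was 0.40. The Lon gene, the membrane protein gene, acox-1.6 and acox-3 therefore ran within 0.35 of each other on the heated arrays, not far below that median. Besides the size of the step, their courses after it differed too. The later change was -0.13 for acox-1.6, against -0.50 for lonp-2 and -0.55 for pxmp-4. On the heated arrays acox-1.4 and decr-1.1 were 0.41 or more from every other member.

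**Figure D3:**
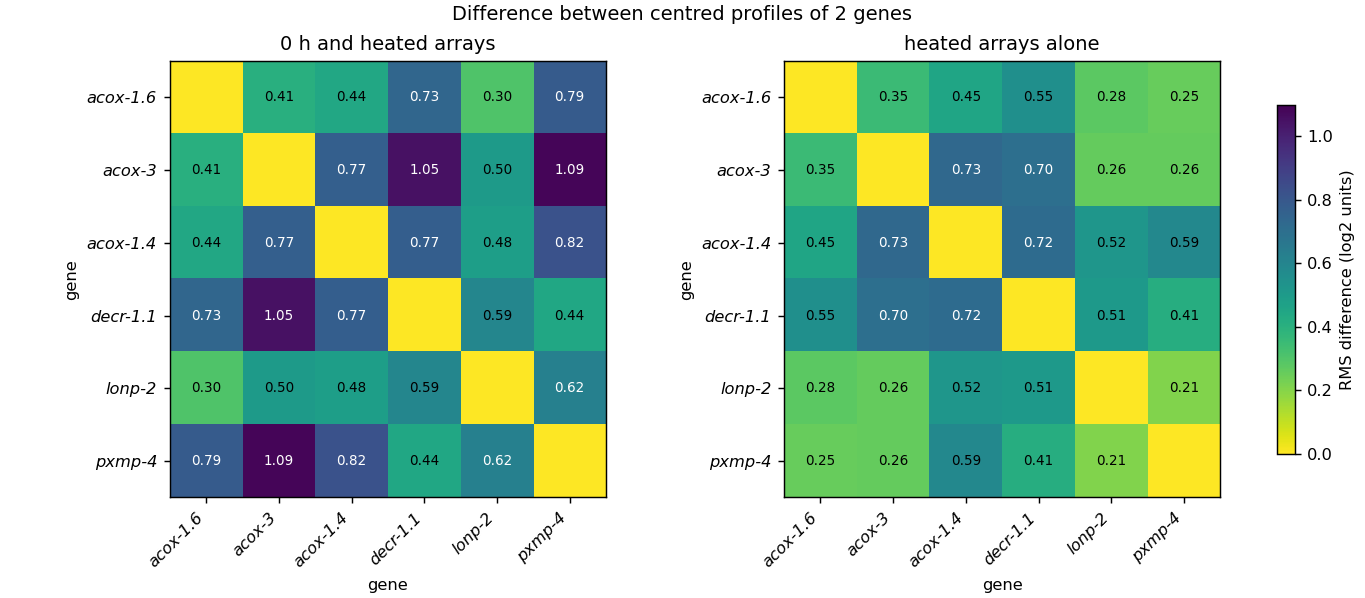
Root mean square difference in log2 units between the profiles of each pair of genes, each profile centred on its own mean, over 0 to 12 h (left) and over the heated arrays alone (right); pairs with acox-3 lack the 12 h array. Dark cells are unlike pairs: pxmp-4 and acox-3 are at 1.09 on the left and 0.26 on the right, and lonp-2 and pxmp-4 are at 0.62 and 0.21.

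Other genes of the pathway could be examined only in part. Of 176 entries in 9 lists of peroxisomal and mitochondrial beta-oxidation, peroxisome assembly, acyl-CoA synthesis, fatty acid synthesis, lipases, organelle proteases, regulators and propionate breakdown, 3 had a named probe, namely lonp-1, hphd-1 and hach-1. A further list of 10 genes for fatty acid oxidation was therefore put together from the names on the array. It also takes in hphd-1 and hach-1, which come from the list of propionate breakdown.

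Of these 10 genes, 1 fell and 0 rose with heating, and 9 did not pass. The gene that fell was hphd-1, for a hydroxyacid-oxoacid transhydrogenase that works in the propionate shunt of C. elegans. Its ratios were 1.74 at 0 h, -0.92 at 2 h, -0.81 at 4 h, -1.198 at 6 h, -1.35 at 8 h, -1.35 at 10 h and -1.23 at 12 h. All 6 heated values lay below the 0 h value, as did those of 21.4% of all features. The list was put together with earlier results of these data known, so the fit of hphd-1 is a description and not an independent test. The share of all features that passed in this comparison is the one given above for the 6 genes. The difference of the heated mean from the 0 h array was -2.88 (SE 0.27; limma adjusted p = 0.00247), and it kept its call in 15 of 15 alternative settings, with limma adjusted p up to 0.0258. Within 2 to 12 h its fitted change was -0.47 (SE 0.26; limma adjusted p = 0.463), so the change past the threshold was the one between the unheated array and the heated ones.

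The median heated difference over the 10 genes was 0.04, against 0.05 over all features, and 5 lay below 0. The 9 that did not pass ranged from -0.39 for acs-25, an acyl-CoA synthetase gene, to 0.44 for etfa-1, which encodes a subunit of the mitochondrial electron transfer flavoprotein that takes electrons from beta-oxidation. Singled out for their roles after the values were seen, phyh-1, for a phytanoyl-CoA hydroxylase of peroxisomal alpha-oxidation, had 0.21 (SE 0.33), and hadb-1, named for the beta subunit of the mitochondrial trifunctional protein, had -0.08 (SE 0.40). Over 0 to 12 h and over 2 to 12 h 0 of the 10 genes passed, with medians of 0.18 and 0.24. At an unadjusted p under 0.05 the only one of them was hphd-1 over 0 to 12 h, and with time on a log scale it passed there.

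The mitochondrial Lon protease gene lonp-1 is the counterpart of lonp-2 in the other organelle. Its ratios were -0.36 at 0 h, -0.45 at 2 h, 0.06 at 4 h, 0.07 at 6 h, 0.42 at 8 h, 0.20 at 10 h and 0.50 at 12 h. Its later values stood above the 0 h value where those of lonp-2 stood below. The fitted change over 12 h was 0.91 (SE 0.25; limma adjusted p = 0.0701) and the heated difference 0.50 (SE 0.34; limma adjusted p = 0.482), so lonp-1 did not pass in either, and the difference between both Lon genes was not tested.

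**Figure D4:**
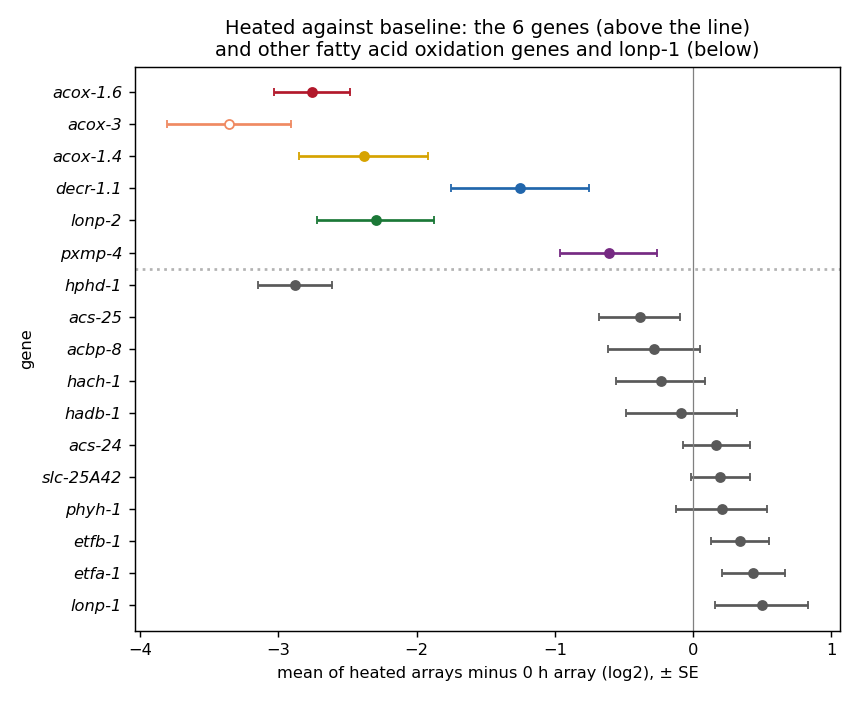
Mean of the heated arrays minus the 0 h array in log2 units (horizontal axis), with bars of ± SE from the linear model. The 6 genes are above the dotted line, and the 10 genes of the fatty acid oxidation list and lonp-1 are below it. In that list hphd-1 and hach-1 come from propionate breakdown. The open point for acox-3 is from the fit that allows missing arrays. hphd-1 at -2.88 lies among the oxidase genes, and the remaining genes below the line lie between -0.39 and 0.50.

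Of 15 genes for lipid synthesis, remodelling and storage named on the array, 14 were measured on all arrays and 0 passed in any of the 3 comparisons. Their median heated difference was -0.11, with 8 below 0. At an unadjusted p under 0.05 there were 2 for heated against baseline and over 0 to 12 h, the same genes both times, and 0 over 2 to 12 h, where 17.6%, 21% and 14.6% of all features were under it. They were plpp-1.2, named for a phospholipid phosphatase (-1.203, SE 0.32; limma adjusted p = 0.103), and pcyt-2.2, named for an enzyme of phosphatidylethanolamine synthesis (0.78, SE 0.25; limma adjusted p = 0.157). With time as log2 of hours plus 1, pcyt-2.2 passed over 0 to 12 h (0.91, SE 0.24; limma adjusted p = 0.0485).

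Among 5310 other named genes measured on all arrays, those nearest to the mean profile of the 5 complete members were ptp-4A2 (0.17 log2 units), F41E6.5 and C18D4.8 (0.18 each), ZC328.3 (0.19), C15B12.1 and the carboxylesterase-family gene cest-27 (0.20 each), C50F4.8 (0.21) and R05G6.10 (0.22). They were found by likeness to the members, so that their own heated differences, from -1.35 to -2.06, are low is no separate result. Nearest to acox-1.6 was ctsa-2, named for a cathepsin A-type peptidase, at 0.06, followed by hphd-1 at 0.22. The ratios of ctsa-2 were 1.70 at 0 h, -1.19 at 2 h, -0.81 at 4 h, -1.25 at 6 h, -1.04 at 8 h, -1.05 at 10 h and -1.54 at 12 h. It lay below acox-1.6 on every array. Among the 99 named genes that varied over the course at least as much as acox-1.6, the distance to the nearest gene had a median of 0.32, and the next smallest such distance was 0.12; these 99 were chosen after the values were seen. The probes of both genes are in different print blocks, and whether they share sequence was not tested.

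**Figure D5:**
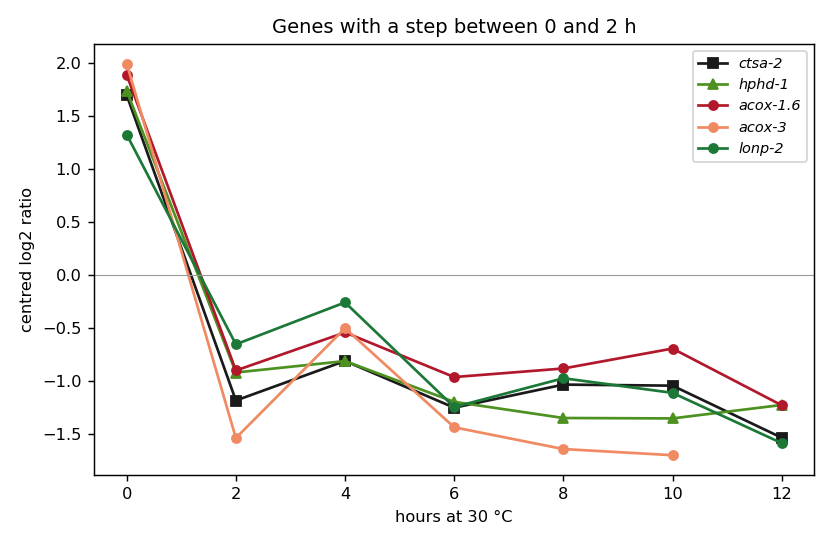
Centred log2 ratio (vertical axis) against hours at 30 °C (horizontal axis) for acox-1.6, acox-3 and lonp-2 and for ctsa-2 and hphd-1, the 2 named genes nearest to acox-1.6, with 1 point per array. All 5 lie between 1.32 and 1.99 at 0 h and below 0 afterwards, and ctsa-2 runs parallel to acox-1.6.

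For the other members the nearest genes were less close or less steep. Nearest to lonp-2 were R10H10.3 and K09E2.3, both at 0.19, nearest to decr-1.1 were T12B3.3 (0.15) and AC3.5 (0.19), nearest to acox-1.4 were nssp-78 (0.34) and T10B10.8 (0.39), and nearest to pxmp-4 were Y43C5A.2 and C02D5.2 (0.12 each). nssp-78 shared the raised 10 h value of acox-1.4, with -1.07 at 8 h, 0.20 at 10 h and -0.88 at 12 h. At 2 h it departed, with 0.77 against -0.37 for acox-1.4. T12B3.3 had the raised 8 h value of decr-1.1, with -0.58 at 4 h, 0.15 at 8 h and -0.93 at 10 h. Both were found by likeness to these members, so the values they share are no separate result.

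The members do not lie beside each other in the gene order. Of the 24 protein-coding genes within 2 places of a member, 12 had a named probe, and their heated differences ran from -1.74 to 0.85 with a median of -0.03. Of the 10 that were tested 0 passed. The lowest were bah-2 beside pxmp-4 (-1.74, SE 0.44; limma adjusted p = 0.0954) and F53C11.1 near decr-1.1 (-1.5, SE 0.42; limma adjusted p = 0.115). The 6 probes were in 6 different print blocks, whose median heated differences lay between -0.06 (acox-3) and 0.18 (pxmp-4). Effects of position within a block were not tested.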

How the data were processed

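The authors deposited 1 value per probe and array, read here as a log2 ratio with worm RNA on top and the common reference below. Neither the base nor the direction is stated; base 2 was assumed from how far the values reach and the direction from F44E5.4 and F44E5.5. How the arrays were scanned, background-corrected and normalized is not stated by the labels or headers. Deposited values stop at -5 and 5. Of 19200 probes, 7900 carry 1 gene name in the platform annotation and 11300 are unnamed here. Names were updated by gene number from the RefSeq table of assembly WBcel235 (7872 matched, 28 kept the annotation's name).

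Each array was centred on its median, and the 316 genes on several probes were averaged. Features measured on all arrays of a comparison were fitted with limma 3.58.1 (lmFit, eBayes) in R 4.3.3, with Benjamini-Hochberg adjustment and a threshold of 0.05. The procedure was tested on simulated data. Each feature was given independent normal noise on all 7 arrays, with the spread of its heated values about a line. A shift of the single 0 h array as a whole was not simulated, so the counts may be too favourable for the real arrays. Comparing heated arrays with 0 h, the procedure found 25 of 100 changes of 1 log2 unit and 67 of 100 of 2 units. The 0 to 12 h slope found 9 and 61, and the 2 to 12 h slope 5 and 60. Unchanged features called numbered 4, 2 and 7 in the same order. Changes near 1 log2 unit would thus mostly be missed, and a gene that did not pass is not shown to be unchanged.

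The members and gene lists were chosen with earlier results of these data known. Named genes follow a written rule: the members, the genes that set the direction, list genes past the threshold or with the lowest p, and the genes of nearest profile. Alternatives were other centring and normalization, missing values, a robust variance prior, time scales and leaving out arrays. Centring within the 32 print blocks was added after seeing the data.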

Additional observations from a re-analysis of the deposited data

How the results depend on the processing

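No paired analysis was possible because only 1 array covers each time. Every early step rests on the single 0 h array, which the comparison of heated with baseline needs. How far signals stood above background is unknown. Fewer arrays enter the fit in some of these settings, and the cause of the shifts was not tested. For heated against baseline, the members past the threshold were 1 (acox-1.6) in place of 3 with quantile normalization, with equal median absolute deviations and with 2, 4 and 6 h only, and were 1 to 3 when each heated array was left out (1 without 6 h and without 8 h). The features lower, 128, became 41, 60 and 48 in these settings, 289 with 8, 10 and 12 h only, and 64 to 273 leaving out each array. For the trend over 0 to 12 h, the members were 0 in place of 3 with quantile normalization, equal median absolute deviations and up to 2 missing arrays. They were 0 to 1 leaving out each array. The features lower, 485, became 260 with quantile normalization and 105 to 426 leaving out each array, and hphd-1 passed, 1 gene of its list against 0, with time as log2 of hours plus 1 (-2.86). On that scale 4 members passed, with acox-1.6 and acox-1.4 gained and pxmp-4 lost, and 1 lipid synthesis gene, pcyt-2.2, against 0. For the trend over 2 to 12 h, the features lower, 105, became 57 with quantile normalization, 43 with up to 2 missing arrays, and 0 (1467 at an unadjusted p under 0.05) for 8 to 12 h against 2 to 6 h. Leaving out each array gave 0 to 59. Without 2 h limma called 0, with 1309 at an unadjusted p under 0.05. The members' median first interval, -1.85, was -1.51 with quantile normalization, and their median early step, -2.22, was -1.89. The median later change was -0.50 over the 5 members measured on all arrays, without acox-3. The median difference between pairs of the 5 complete members was 0.61, and 0.48 to 0.65 leaving out each array. In heated against baseline and the trend over 0 to 12 h, the fitted changes of all 5 members stayed below 0 in all 15 settings. Over 2 to 12 h those of acox-1.6 (0.04 without 12 h) and acox-1.4 (0.46 without 2 h) changed sign.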
